A study of Homo sapiens with 16 samples.

Results

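The fatty acid use and PPAR genes described here were PDK4, ACSL1, CD36, ACADL, ACADM, CPT1A, FADS2, RXRG, PPARG and PLIN2, 10 of the 18417 genes that the arrays measured with at least 1 cluster of a single symbol. The genes were chosen by name with earlier results of these same arrays known, and each was read from the transcript cluster, the group of probes summarized as 1 gene, with the highest mean over the 16 arrays. Each of the 10 had only 1 such cluster, so this last choice changed nothing. The adjusted p values given for them describe the arrays that the choice was partly made on and are not independent evidence.

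A375 is an established human amelanotic melanoma cell line. Its untransfected cells (A375) and a line carrying the empty pcDNA3 vector (PCDNA3) served together as control, and the clones A7 and G10 carried pcDNA3 with the human catalase cDNA. Every group had 4 biological replicates, grown to subconfluence in a serum medium with galactose, pyruvic acid and insulin, and the stable transfectants were kept in geneticin. A7 and G10 were each a single clone obtained by dilution, so an effect of catalase and a difference between clones cannot be told apart. The cluster of CAT, the transfected catalase gene, averaged 8.73 ± 0.20 (SD, n = 4) in A375, 8.56 ± 0.10 in PCDNA3, 9.02 ± 0.08 in A7 and 8.27 ± 0.38 in G10. In order of replicate number, the G10 arrays read 8.51, 8.55, 7.74 and 8.27. Against control CAT was not called in either clone (adjusted p = 0.124 in A7 and 0.0526 in G10). It was called lower in the catalase clone G10 than in A375 alone (log2 difference -0.47, adjusted p = 0.048) and than in A7 (-0.75, adjusted p = 0.00221), and how far its probes read the transfected cDNA was not tested.

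Fatty acids enter cells partly through the scavenger receptor CD36, are activated to acyl-CoA by synthetases such as ACSL1, and reach the mitochondrial matrix through the carnitine shuttle, whose gatekeeper is CPT1A. Acyl-CoA dehydrogenases (ACADM for medium and ACADL for long chains) then open each round of beta-oxidation, while PDK4 phosphorylates and silences pyruvate dehydrogenase so that carbon from sugar is held back. The PPAR receptors bind fatty acids, pair with retinoid X receptors such as RXRG, and switch on many of these genes at paired AGGTCA hexamers with a spacer of a single base.

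Promoter sequence of the receptor pair is shown because PPARG and RXRG moved in opposite directions in G10 and because they were the only members with the hexamer near their start. The 10 genes all matched a RefSeq promoter (GRCh38.p14, 250 bases before to 50 after the annotated start). The search was for AGGTCA on either strand and for the direct repeat AGGTCANAGGTCA, whose every match also holds the hexamer. AGGTCA was found in 2 of the 10 promoters and in 13.8% of all 35116 promoters of this length, and the direct repeat in 0 of the 10 and in 0.0228% of all. The 250 bases before the start of RXRG (chr1:165445127-165445376, minus strand) and of PPARG (chr3:12287118-12287367, plus strand) follow, written 5′ to 3′ on the strand of the gene, with the hexamer or its reverse complement in capitals. The match in RXRG starts at -231 and those in PPARG at -217 and -184, counted from the annotated start, and no binding was measured at any of them.
RXRG: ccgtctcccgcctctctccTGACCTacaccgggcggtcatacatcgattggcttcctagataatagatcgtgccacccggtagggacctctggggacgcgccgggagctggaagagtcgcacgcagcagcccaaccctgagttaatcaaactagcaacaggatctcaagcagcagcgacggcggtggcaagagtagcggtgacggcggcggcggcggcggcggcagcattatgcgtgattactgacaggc
PPARG: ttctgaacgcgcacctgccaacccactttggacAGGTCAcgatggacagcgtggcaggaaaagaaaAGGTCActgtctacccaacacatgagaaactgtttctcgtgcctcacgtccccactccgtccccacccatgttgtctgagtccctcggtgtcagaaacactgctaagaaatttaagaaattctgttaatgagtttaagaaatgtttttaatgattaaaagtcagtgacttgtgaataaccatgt

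All levels below are deposited log2 intensities. Array medians lay between 5.85 and 5.97, and arrays correlated over all clusters at r = 0.984 to 0.995 within groups. The 95th percentile of 360 olfactory receptor clusters, which stand for unexpressed genes, was 5.18, and 9 of the 10 genes exceeded it in at least 1 group. A change with one group below this level is printed as a lower bound ("at least"), and a change with both below it has no size. In G10, arrays 1 and 2 correlated at 0.994 and arrays 3 and 4 at 0.992, against 0.984 to 0.987 across these pairs. The labels name no batch for this split. Genes other than CAT whose printed G10 values lie apart by pair are given with either pair left out. Of the 6 adipocyte markers, 2 exceeded the level in A375, 2 in PCDNA3, 3 in A7 and 2 in G10. ADIPOQ, LEP and FABP4 lay below 5.18 in every group. PLIN1 and LIPE lay above it in every group, and CIDEC in A7 only. The 6 summed to 28.0 to 28.7 in A375, 27.6 to 29.4 in PCDNA3, 26.4 to 29.5 in A7 and 27.4 to 28.5 in G10. Of the 11 measured melanocytic markers, 8 exceeded the level in A375, 9 in PCDNA3, 11 in A7 and 9 in G10. Their sum was 78.3 to 81.3, 78.1 to 85.3, 87.9 to 90.5 and 84.2 to 88.0 in these groups, and its part in the results was not tested.

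In A7 vs control, PDK4 and ACSL1 were upregulated and ACADL was also called higher, whereas none of the 10 genes was called lower. Over all 33297 clusters, 3.46% were called higher and 2.23% lower (limma, adjusted p under 0.05). In G10 vs control, PDK4 and PPARG were upregulated and CD36, CPT1A, FADS2 and RXRG downregulated, 2 genes higher and 4 lower, beside 9.92% and 7.9% of all clusters. Only PDK4 was called higher in both clones, which were compared with the same 8 control arrays. The median difference of the 10 genes was 0.07 in A7 and -0.14 in G10, and that of all clusters was -0.02 and -0.04. Against A375 alone or PCDNA3 alone, the counts stayed at 3 of 10 in A7 and 6 of 10 in G10. The shares of all clusters called in these were 4.17% and 4.72% in A7, and 14.2% and 15.5% in G10. The choice of the genes bears on all these counts, and nothing is read from their distance to the background.

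**Figure D1:**
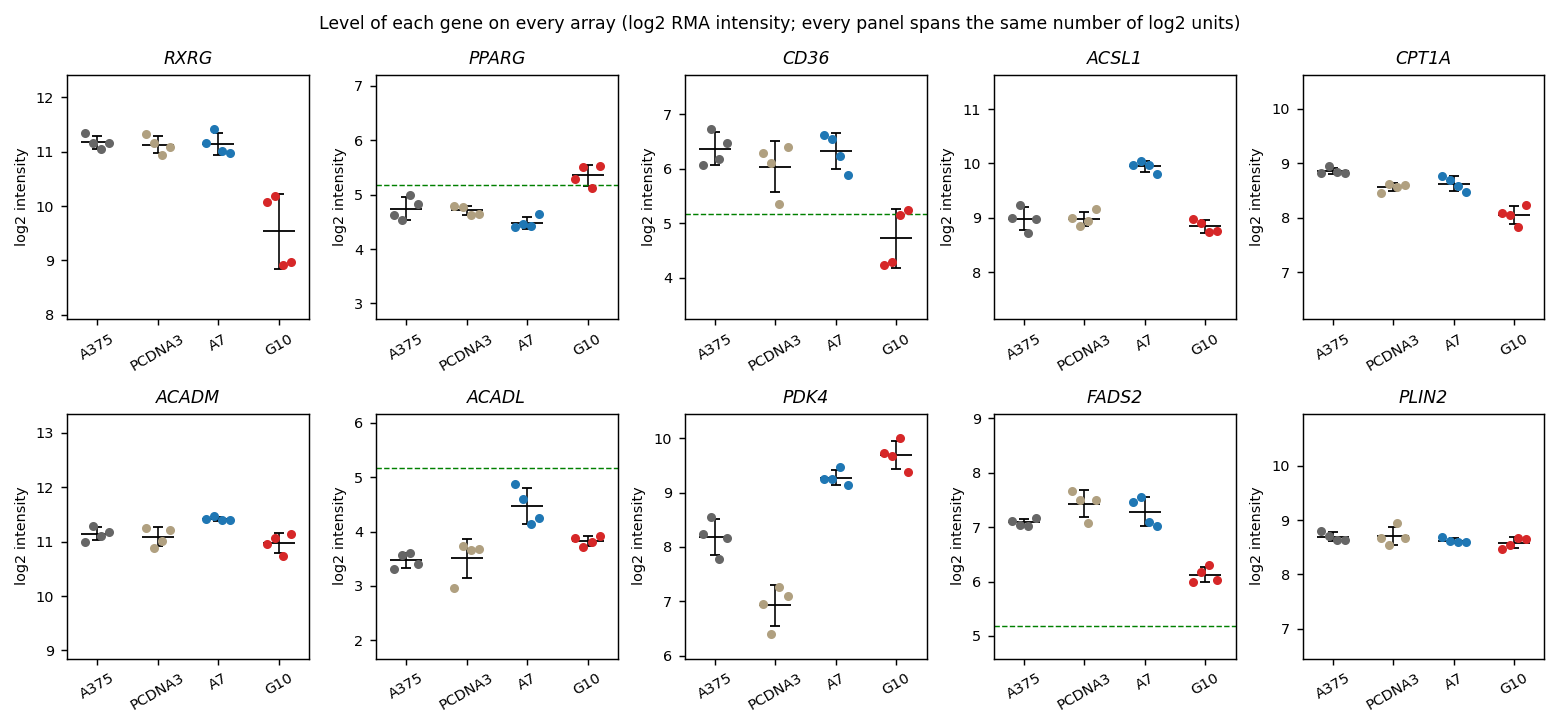
Log2 intensity of each gene on the 16 arrays, 4 per group, with the group mean and SD as black bars and the unexpressed level of 5.18 as a dashed green line where it falls in the panel. PDK4 is highest in both clones, ACSL1 only in A7, RXRG and FADS2 are lowest on all 4 G10 arrays, and ACADL stays below the dashed line throughout.

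RXRG, a retinoid X receptor with restricted tissue expression, was downregulated in G10. It read 11.34, 11.16, 11.05 and 11.15 in A375, 11.32, 11.17, 10.94 and 11.09 in PCDNA3, 11.15, 11.43, 11.01 and 10.98 in A7, and 10.07, 10.19, 8.91 and 8.98 in G10. The 3 other groups overlapped throughout and every G10 array lay below all of them, with arrays 3 and 4 lower than arrays 1 and 2 by more than the spread within either pair. The difference from control was -1.61 (SE 0.21, adjusted p = 4.44e-05), a 3.06-fold fall, and it was -1.02 from G10 arrays 1 and 2 alone and -2.21 from arrays 3 and 4 alone. In A7 the difference was -0.01 (SE 0.21, adjusted p = 0.991).

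PPARG, the PPAR best known as the driver of fat cell differentiation, was upregulated in G10 from a level at which unexpressed genes are read. Its values were 4.62, 4.53, 4.99 and 4.84 in A375, 4.79, 4.77, 4.63 and 4.64 in PCDNA3, 4.40, 4.46, 4.42 and 4.65 in A7, and 5.29, 5.50, 5.11 and 5.52 in G10. All G10 arrays lay above all others, and 3 of the 4 exceeded 5.18, while no array of another group did. PPARG was at least 0.18 log2 units higher in G10 than in control (measured difference 0.63, SE 0.10, adjusted p = 0.000288). The difference between A7 and control was not called (adjusted p = 0.2).

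CD36, which takes up long-chain fatty acids at the cell surface, was downregulated in G10 to a mean below the unexpressed level, with 1 of the 4 arrays above it. Its values were 6.08, 6.74, 6.18 and 6.48 in A375, 6.29, 6.10, 5.36 and 6.40 in PCDNA3, 6.62, 6.54, 6.23 and 5.89 in A7, and 4.23, 4.28, 5.15 and 5.24 in G10. No G10 array overlapped another group, but the highest G10 array was close to the lowest PCDNA3 array. CD36 was at least 1.01 lower in G10 than in control (measured difference -1.48, SE 0.23, adjusted p = 0.000293), with measured differences of -1.95 from G10 arrays 1 and 2 and -1.01 from arrays 3 and 4. The order of the array pairs was thus opposite to that of RXRG, which was lowest on arrays 3 and 4. A7 differed from control by 0.12 (SE 0.23, adjusted p = 0.868).

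ACSL1, a long-chain acyl-CoA synthetase, was upregulated in A7 and not called in G10. It read 8.99, 9.23, 8.73 and 8.99 in A375, 8.99, 8.84, 8.94 and 9.16 in PCDNA3, 9.98, 10.04, 9.96 and 9.81 in A7, and 8.97, 8.90, 8.73 and 8.76 in G10. Every A7 array lay above every other array, and the remaining groups overlapped. The rise in A7 was 0.96 (SE 0.09, adjusted p = 7.92e-06), or 1.95-fold, and G10 differed from control by -0.14 (95% confidence interval -0.34 to 0.05, adjusted p = 0.364). The G10 difference was -0.05 from arrays 1 and 2 alone and -0.24 from arrays 3 and 4 alone, neither called.

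CPT1A, the liver-type carnitine palmitoyltransferase of the outer mitochondrial membrane, was downregulated in G10. Its values were 8.82, 8.94, 8.83 and 8.82 in A375, 8.46, 8.62, 8.56 and 8.60 in PCDNA3, 8.77, 8.69, 8.58 and 8.47 in A7, and 8.09, 8.05, 7.82 and 8.24 in G10. The G10 arrays were below all others, and the A375 arrays above all others. The fall in G10 was -0.66 (SE 0.08, adjusted p = 3.29e-05), or 1.58-fold, and A7 differed from control by -0.08 (SE 0.08, adjusted p = 0.701). PCDNA3 lay below A375 by -0.29 without a call (SE 0.09, adjusted p = 0.207).

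ACADM, the medium-chain acyl-CoA dehydrogenase, had its highest values in A7. It read 11.00, 11.29, 11.11 and 11.18 in A375, 11.26, 10.89, 11.02 and 11.22 in PCDNA3, 11.43, 11.47, 11.39 and 11.40 in A7, and 10.95, 11.07, 10.74 and 11.14 in G10. All A7 arrays exceeded all control arrays by a small margin, and G10 overlapped the controls. The difference of 0.30 in A7 did not pass (SE 0.09, adjusted p = 0.0654), nor did that of -0.15 in G10 (SE 0.09, adjusted p = 0.334). The A7 difference was called in 6 of 25 alternative settings, with adjusted p from 0.0269 to 0.177 over these.

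ACADL, the long-chain acyl-CoA dehydrogenase, stayed below 5.18 on every array, so its measured differences are not read as sizes. The values were 3.31, 3.57, 3.61 and 3.40 in A375, 2.96, 3.73, 3.67 and 3.67 in PCDNA3, 4.87, 4.60, 4.14 and 4.25 in A7, and 3.89, 3.71, 3.80 and 3.92 in G10. A7 lay above all other arrays (adjusted p = 0.000789 against control), and G10 overlapped PCDNA3 only (adjusted p = 0.144).

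PDK4, the pyruvate dehydrogenase kinase induced in fasting muscle and liver, had the widest range of group means of the 10 genes, 2.76 log2 units. It read 8.25, 8.56, 7.77 and 8.17 in A375, 6.96, 6.40, 7.26 and 7.09 in PCDNA3, 9.24, 9.25, 9.46 and 9.14 in A7, and 9.72, 9.67, 10.00 and 9.38 in G10. Neither control overlapped the other or a clone, and the clones overlapped each other. The rise over control was 1.72 in A7 (SE 0.16, adjusted p = 6.2e-06), or 3.29-fold, and 2.14 in G10 (SE 0.16, adjusted p = 1.83e-07), or 4.39-fold.

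The size of the PDK4 rise depended on the control, because PDK4 was 1.26 lower on the log2 scale in PCDNA3 than in A375 (log2 difference -1.26, SE 0.19, adjusted p = 0.0189). Against A375 alone it was 2.13-fold in A7 and 2.84-fold in G10, and against PCDNA3 alone 5.08-fold and 6.80-fold. PDK4 was the only 1 of the 10 genes called between the controls, where 0.045% of all clusters were called higher in PCDNA3 and 0.0781% lower. That call was lost without replicate 1 or 2 of A375 or replicate 1 of PCDNA3 (adjusted p = 0.0628, 0.0618 and 0.054), with differences of -1.24, -1.13 and -1.27.

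FADS2, the delta-6 desaturase that starts the synthesis of polyunsaturated fatty acids, was downregulated in G10. Its values were 7.12, 7.04, 7.03 and 7.17 in A375, 7.67, 7.49, 7.08 and 7.49 in PCDNA3, 7.46, 7.55, 7.09 and 7.03 in A7, and 6.00, 6.17, 6.30 and 6.04 in G10. G10 lay below every other array and the 3 other groups overlapped. The fall in G10 was -1.13 (SE 0.12, adjusted p = 6.02e-06), or 2.20-fold, and A7 differed from control by 0.02 (SE 0.12, adjusted p = 0.956).

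PLIN2, which coats lipid droplets and is a widely used PPAR target, varied least, with group means within 0.13 of each other. It read 8.81, 8.70, 8.63 and 8.63 in A375, 8.68, 8.54, 8.94 and 8.68 in PCDNA3, 8.68, 8.62, 8.59 and 8.59 in A7, and 8.46, 8.53, 8.67 and 8.66 in G10. All 4 groups overlapped. The differences from control were -0.08 in A7 (95% confidence interval -0.24 to 0.09) and -0.12 in G10 (-0.28 to 0.05). In G10 the difference was -0.20 from arrays 1 and 2 alone and -0.04 from arrays 3 and 4 alone, neither called.

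**Figure D2:**
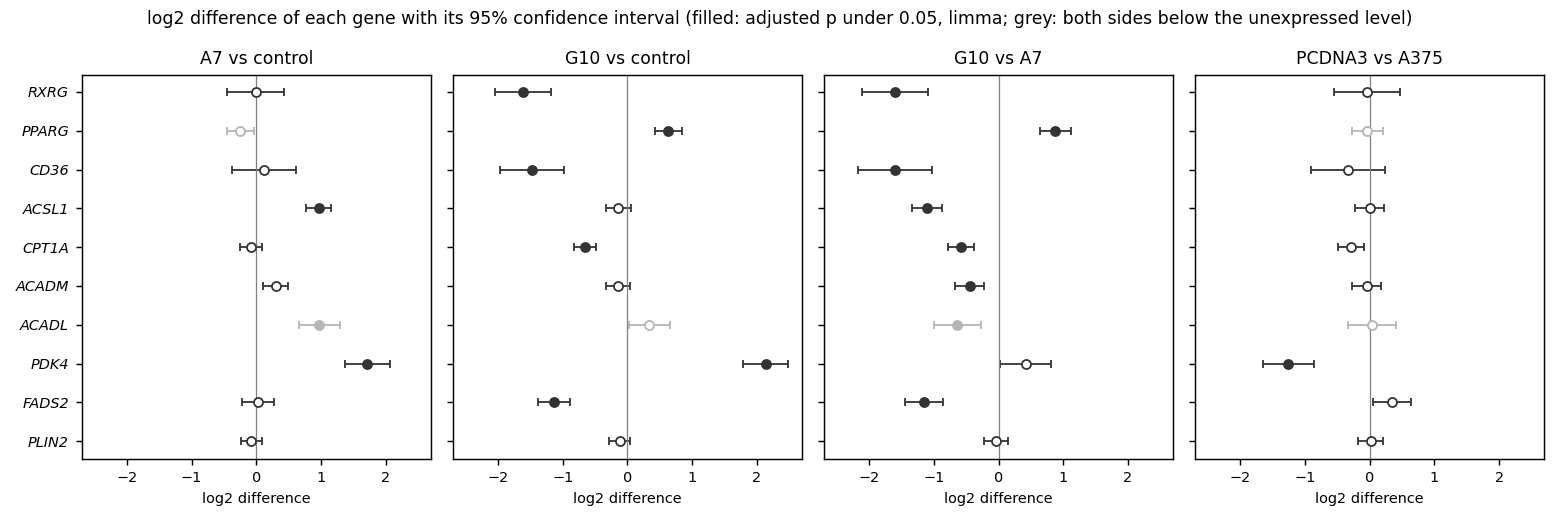
Measured log2 difference of each gene, with its 95% confidence interval, in 4 comparisons. Filled points were called by limma at an adjusted p under 0.05, open points were not, and grey marks genes below the unexpressed level on both sides, for which no size is read. The clones share a filled point to the right for PDK4 only, while RXRG, CD36, CPT1A and FADS2 are filled to the left in G10.

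The clones were also compared with each other. G10 was lower than A7 in 7 of the 10 genes and higher in 1, beside 7.38% and 7.83% of all clusters, and the median difference of the 10 was -0.61 against -0.01 over all clusters. Beyond the genes downregulated against control, the 7 included ACSL1 (-1.11, SE 0.11, adjusted p = 3.02e-06), ACADM (-0.45, SE 0.10, adjusted p = 0.00711) and ACADL, without a size (adjusted p = 0.0189). RXRG differed by -1.61 (SE 0.24, adjusted p = 0.000198). FADS2 and CPT1A differed by -1.16 (adjusted p = 2.33e-05) and -0.58 (adjusted p = 0.000437). The called genes belong to receptor, uptake, activation, transport, dehydrogenase and desaturation steps. The choice of the 10 genes bears on these counts and on the median, and nothing is read from their distance to the background. CD36 was at least 1.13 lower in G10 (measured -1.60, SE 0.27, adjusted p = 0.000591), and PPARG at least 0.18 higher (measured 0.88, SE 0.11, adjusted p = 6.07e-05). PDK4 differed by 0.42 (95% confidence interval 0.02 to 0.81, adjusted p = 0.167), and PLIN2 by -0.04 (adjusted p = 0.866). The ACADL call was lost without replicate 1 or 2 of A7, replicate 2 of G10 or either pair of G10 arrays (adjusted p up to 0.0894).

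Other genes of these pathways were counted in 10 lists, which together named 154 further genes, 136 of them measured and 112 above the unexpressed level. In A7 vs control 7 were higher and 4 lower (5.15% and 2.94% of the measured, beside 3.46% and 2.23% of all clusters). In G10 vs control 25 were higher and 15 lower (18.4% and 11.0%, beside 9.92% and 7.9%). All clusters include those below the unexpressed level, which 20846 of the 33297 exceeded in at least 1 group. With the fit limited to these 20846, 3484 were called higher and 2779 lower in G10, with 25 and 16 of the 112 pathway genes. In A7 1231 and 792 were called, with 14 and 4 of the 112. The median difference of the 136 genes was 0.04 in A7 and 0.02 in G10, against -0.02 and -0.04 over all clusters. Over the alternative settings the counts ranged from 2 to 16 higher and 2 to 10 lower in A7, and from 16 to 36 and 10 to 18 in G10, and each gene given with a value below kept its direction in every setting where its call was lost.

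Receptors and cofactors were called in both directions. Of 12 measured receptors and cofactors, NR1H3, the oxysterol receptor LXR alpha, was higher (0.44, SE 0.10, adjusted p = 0.0144) and the coactivator NCOA2 lower in A7. In G10, MED1 and NRIP1 were higher and RXRA, NR1H3 and PPARGC1B lower. NRIP1, a corepressor of nuclear receptors, rose by 0.61 (SE 0.14, adjusted p = 0.00595), and NR1H3 fell by 0.41 (SE 0.10, adjusted p = 0.00868). Thus NR1H3 moved up in A7 and down in G10 against the same controls, but the first call was lost against A375 alone or without replicate 1 or 2 of A7, and the second against PCDNA3 alone or without G10 arrays 3 and 4 (adjusted p up to 0.0923 and 0.114). The NCOA2 difference of -0.54 (SE 0.14, adjusted p = 0.0317) was not called in 9 of 25 settings, among them A375 alone, the replicate block and replicate 1, 3 or 4 of A7 left out (adjusted p up to 0.127). The MED1 call (0.39, adjusted p = 0.0255) was lost in 6 of 27 settings, and that of PPARGC1B (-0.39, adjusted p = 0.00224) against A375 alone. The NRIP1 call was lost against A375 alone or without G10 arrays 1 and 2 (adjusted p up to 0.307).

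Of 15 genes of fatty acid uptake and binding, none was called in A7, and in G10 SLC27A3 and FABP6 were higher and SLC27A4 and VLDLR lower. Only 9 of the 15 exceeded the unexpressed level in any group. FABP6, a bile acid binding protein of the gut, rose by 0.73 (SE 0.11, adjusted p = 0.000174) and kept its call in every setting. The SLC27A3 call (0.29, adjusted p = 0.0362) was lost in 11 of 27 settings, including either control alone (adjusted p up to 0.225). That of SLC27A4 (-0.45, adjusted p = 0.0165) was lost against A375 alone and without G10 replicate 1, 2 or both (adjusted p up to 0.433). VLDLR, a receptor for triglyceride-rich lipoproteins, differed by -0.64 in G10 (SE 0.13, adjusted p = 0.0017). It also differed between PCDNA3 and A375 by -1.12 (SE 0.15, adjusted p = 0.0111), the only 1 of the 136 called there, and against PCDNA3 alone its difference in G10 was -0.08 (adjusted p = 0.799). Between the controls the VLDLR call was lost without replicate 2 of A375 (adjusted p = 0.0616). Of 10 acyl-CoA synthetases besides ACSL1, ACSS1 was lower in A7, and in G10 ACSL4, ACSF2 and ACSF3 were higher and ACSS2 lower. Only 5 of the 10 synthetases exceeded the unexpressed level in any group. ACSF2 read 8.05, 7.95, 5.98 and 6.39 on the G10 arrays and was at most 5.19 on any array of A375, 4.87 of PCDNA3 and 4.97 of A7. It was at least 1.91 higher in G10 than in control (adjusted p = 0.000101), at least 2.82 from G10 arrays 1 and 2 and at least 1.01 from arrays 3 and 4. ACSS2, which makes acetyl-CoA from acetate, differed by -0.84 in G10 (SE 0.16, adjusted p = 0.00141), by -0.53 from arrays 1 and 2 and by -1.14 from arrays 3 and 4. The ACSF3 rise of 0.48 (adjusted p = 0.00205) was not called without G10 arrays 1 and 2 (adjusted p = 0.0686), and the ACSS1 difference of -0.30 in A7 (adjusted p = 0.021) was not called against PCDNA3 alone or without replicate 3 or 4 of A7 (adjusted p up to 0.109).

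Of 16 mitochondrial beta-oxidation genes besides ACADM and ACADL, none was called in A7. In G10 7 were higher and 2 lower, beside 9.92% and 7.9% of all clusters. All 16 exceeded the unexpressed level in at least 1 group. With the fit limited to clusters that did so, 3484 of 20846 were called higher and 2779 lower in G10. The 7 were ACADS, ACADVL, ACADSB, ECHS1, HADH, ECI2 and ETFDH, and the 2 were ACAA2 and ETFA. ACADSB, a dehydrogenase of short branched chains, rose by 0.81 in G10 (SE 0.17, adjusted p = 0.00358), and ETFDH, which passes electrons to the respiratory chain, by 0.58 (SE 0.15, adjusted p = 0.0118). In A7 these 2 differed from control by 0.59 and 0.48 without a call (adjusted p = 0.0595 and 0.074). Between the clones they differed by 0.22 and 0.09, also without a call (adjusted p = 0.597 and 0.822). The median difference of the 16 genes was 0.18 in A7 and 0.29 in G10, and over all settings 0 to 3 were called higher in A7. The thiolase ACAA2 differed by -0.34 (SE 0.09, adjusted p = 0.018), a call lost against PCDNA3 alone and without G10 replicate 3, 4 or both (adjusted p up to 0.194). The ETFA call (-0.23, adjusted p = 0.0476) was lost in 18 of 27 settings. In the carnitine shuttle, only the carnitine acetyltransferase CRAT was called of 6 genes besides CPT1A, higher in G10 (0.45, SE 0.13, adjusted p = 0.0197). Its difference of 0.37 in A7 was not called (adjusted p = 0.115). Against control in G10, CPT1A thus fell, ACADM was not called (-0.15, adjusted p = 0.334) and ACADL lay below the unexpressed level. The called acyl-CoA dehydrogenases ACADS, ACADVL and ACADSB rose. The rise rested largely on G10 arrays 1 and 2: without them 2 of the 16 genes were called higher, with ACADSB, ETFDH and CRAT not called (adjusted p = 0.108, 0.126 and 0.428), and without arrays 3 and 4 it was 11 of 16. Single G10 arrays left out gave 4 to 8.

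Peroxisomal beta-oxidation had 4 genes higher in G10 of 10, EHHADH, ABCD2, ABCD3 and PEX11A, and none lower, beside 9.92% and 7.9% of all clusters. In A7 only ABCD2 was called, while the median difference of the 10 was 0.23 in A7 and 0.21 in G10. ABCD2 lay below the unexpressed level in all groups, so no size is read in either clone, and its G10 call was lost against A375 alone and without G10 replicate 1, 2 or both (adjusted p up to 0.369). EHHADH, the peroxisomal bifunctional enzyme and a PPAR target, read 8.73, 8.82, 7.51 and 7.68 on the G10 arrays and 1.22 higher on average than control (SE 0.21, adjusted p = 0.000589). The EHHADH difference was 1.81 from arrays 1 and 2 and 0.63 from arrays 3 and 4. Its lowest G10 array was just below the highest A375 array, 7.52. PEX11A, which divides peroxisomes, rose by 0.79 (SE 0.09, adjusted p = 1.64e-05).

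Around PDK4, of 11 genes of pyruvate dehydrogenase and its regulators, PDHA1, PDHX and MPC1 were higher in A7. PDHA1 differed by 0.27 (adjusted p = 0.0375) and PDHX by 0.33 (adjusted p = 0.0346). None of these 3 was called against A375 alone, with the replicate block, or without replicates 1 or 4 of A375, 2 of PCDNA3, or 1, 2 or 3 of A7. In G10, PDK2 and PDP1 were higher and DLAT lower. PDK2, another kinase of the complex, read 8.96, 9.14, 8.44 and 8.53 in G10 and at most 7.71 elsewhere (difference from control 1.38, SE 0.15, adjusted p = 1e-05, with 1.66 from arrays 1 and 2 and 1.09 from arrays 3 and 4). DLAT, the acetyltransferase core of the complex, read 8.43, 8.43, 8.47 and 8.56 in G10 and between 9.73 and 10.05 elsewhere (difference -1.40, SE 0.06, adjusted p = 5.03e-10). It differed by -1.44 from G10 arrays 1 and 2 and by -1.36 from arrays 3 and 4. In G10, therefore, PDK4 and PDK2 rose and DLAT fell, with no overlap with a control array in any of them. The phosphatase PDP1, which counters the kinases, was also called higher in G10, by 0.60 (SE 0.18, adjusted p = 0.0293). It differed by 0.15 from G10 arrays 1 and 2 (adjusted p = 0.612) and by 1.06 from arrays 3 and 4. The call was lost in 8 of 27 settings, among them PCDNA3 alone as control and replicate 3 or 4 of G10 left out. PDP1 was 0.79 higher in PCDNA3 than in A375, without a call (adjusted p = 0.12).

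Besides FADS2, 23 genes of desaturation, elongation and fatty acid synthesis were measured. ELOVL4, ELOVL6, ELOVL7 and HACD4 were higher in G10 and FADS1, FADS3 and ELOVL1 lower, and in A7 ELOVL7 and HSD17B12 were higher. HACD4 lay below the unexpressed level in every group, so its call has no size (adjusted p = 6.86e-08). The elongase ELOVL7 was at least 0.08 higher in A7 (adjusted p = 0.0035) and at least 0.20 in G10 (adjusted p = 0.000366), where arrays 1 and 2 alone gave at least 0.67 and the mean of arrays 3 and 4 lay below the level. The HSD17B12 difference of 0.41 (SE 0.10, adjusted p = 0.0294) was not called in 9 of 25 settings, among them either control alone and replicate 1, 2 or 3 of A7 left out (adjusted p up to 0.103). FADS1 and FADS3 lie beside FADS2 on chromosome 11. FADS3 read 7.41, 7.39, 7.74 and 7.82 in G10, below all other arrays, and differed from control by -0.90 (SE 0.10, adjusted p = 1.43e-05), by -1.10 from arrays 1 and 2 and by -0.71 from arrays 3 and 4. FADS1, the delta-5 desaturase, read 9.64, 9.74, 8.74 and 9.09 in G10, where arrays 1 and 2 overlapped the controls, and differed by -0.54 (SE 0.16, adjusted p = 0.0231), by -0.15 from arrays 1 and 2 and by -0.93 from arrays 3 and 4. All 3 neighbouring FADS genes were thus lower in G10, with the FADS1 call lost against A375 alone, with array weights, or without replicate 3 or 4 of G10 or both (adjusted p up to 0.478).

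Of 15 lipid droplet and lipolysis genes besides PLIN2, HILPDA and DGAT1 were lower in A7 and HILPDA and DGAT2 in G10, and none was higher in either. DGAT1 and DGAT2 both make triglyceride. DGAT1 differed by -0.64 in A7 (SE 0.11, adjusted p = 0.00207) and DGAT2 by -0.61 in G10 (SE 0.09, adjusted p = 0.00019). HILPDA, an inhibitor of lipolysis, differed by -0.49 in A7 (SE 0.12, adjusted p = 0.0186) and -0.54 in G10 (SE 0.12, adjusted p = 0.00356). Against PCDNA3 alone neither HILPDA call held (adjusted p = 0.168 and 0.0527), and the A7 call was also lost without replicate 1 or 2 of A7. Of 29 textbook PPAR target genes besides the 10 members, 17 exceeded the unexpressed level in at least 1 group, and none was called in A7. In G10, ACADVL, EHHADH and PEX11A were higher and AQP3 lower, 3 and 1 of 29, beside 9.92% and 7.9% of all clusters. The AQP3 difference of -0.44 (adjusted p = 0.00357) was not called without G10 arrays 3 and 4 (adjusted p = 0.0906).

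**Figure D3:**
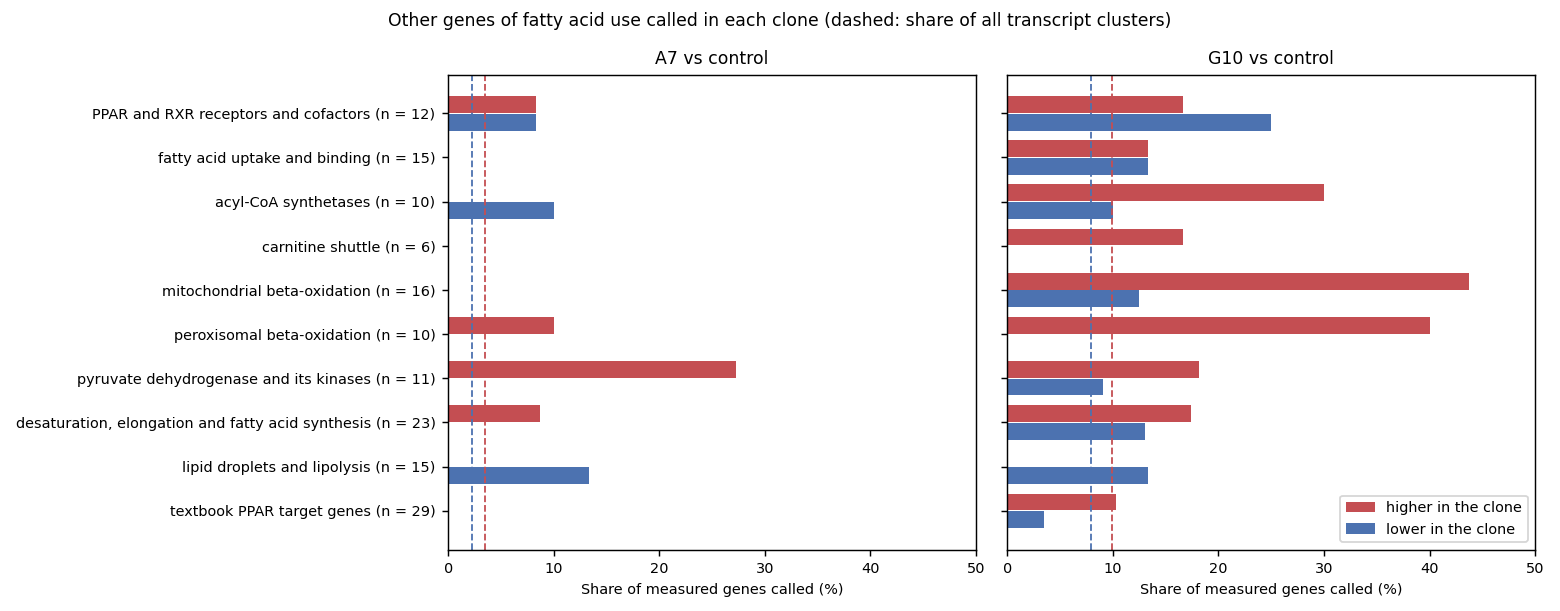
Share of the measured genes of each list, without the 10 genes described above, called higher (red bars) or lower (blue bars) than control in A7 and in G10, with the shares over all clusters as dashed lines of the same colours (3.46% and 2.23% in A7, 9.92% and 7.9% in G10). A gene may be in more than 1 list. The dashed lines also count clusters below the unexpressed level. In G10 the longest red bars are those of mitochondrial beta-oxidation, 7 of 16, and peroxisomal beta-oxidation, 4 of 10. In A7 both lists together hold 1 called gene, although their median differences were 0.18 and 0.23 in A7, beside 0.29 and 0.21 in G10.

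The genes whose pattern over the 16 arrays was most like that of the 3 members with the widest range were named as a description, from 14507 genes. For PDK4 they were ST8SIA4, STK26 and GOLPH3L (Pearson's r of 0.947, 0.943 and 0.917). For CD36 they were ZDHHC20, ARRB1 and LASP1 (0.945, 0.932 and 0.931), and for RXRG ZNF512, PLPP3 and FKBP14 (0.976, 0.975 and 0.972). The 16 points of each fall into 4 groups that share a line or clone.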

How the data were processed

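Total RNA of 16 cultures was hybridised to Affymetrix Human Gene 1.0 ST arrays. The deposited values are log2 intensities that the authors background-corrected, normalized and summarized with RMA, per the labels and the study's methods. For RMA and limma, the version as run by the authors is not given in these sources, and probe-level data were not analysed here. Of 33297 clusters, 19460 carried 1 gene symbol, 1754 several and 12083 none, and genes were named only from the first. Groups and replicate numbers came from the sample titles.

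In R 4.3.3 with limma 3.58.1, lmFit fitted 1 mean per group over all 16 arrays and eBayes moderated the variances (3.57 prior degrees of freedom). The control value was the mean of both control groups, each with equal weight. Benjamini-Hochberg adjustment ran over every cluster of a comparison, with calls at 0.05. Recovery of 200 altered clusters was checked on simulated data. Tables and plots used Python 3.11.15, pandas 2.3.3 and matplotlib 3.10.9. With 4 arrays per group, the number of arrays limits the precision. For a lower bound, arrays of the dimmer group below the unexpressed level of 5.18 were set to it before the group means were subtracted.

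The members and lists were chosen with earlier results of these data known. Named genes were all members, CAT and, from each list, up to 2 genes per direction in each clone. These had the largest called change against control. The same choice was made between the controls, and some genes are given by name only. Other called genes are given by name. Alternatives were either control alone, only the groups compared, quantile normalization, median centring, limma-trend, array weights, a filter at the unexpressed level, a replicate block, and each array left out in turn. Leaving out either pair of G10 arrays was chosen after seeing the data.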

Additional observations from a re-analysis of the deposited data

Results flagged for a closer look

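Single arrays stood apart in 2 of the 40 sets of 4 arrays that were checked for a value far from the other 3, and chance alone marks about 1 in 20. ACADL read 2.96 on the lowest PCDNA3 array, below the unexpressed level like all its values, and CPT1A read 8.94 on the highest A375 array.

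G10 and A7 were tested directly against each other, and 8 of the 10 genes differed by the limma fit at an adjusted p under 0.05. In G10 7 were lower and 1 higher, beside 7.38% and 7.83% of all clusters. The genes were chosen with earlier results of these arrays known, so nothing is read from this count. The measured log2 differences, G10 minus A7, were -1.11 for ACSL1, -1.60 for CD36, -0.64 for ACADL, -0.45 for ACADM, -0.58 for CPT1A, -1.16 for FADS2, -1.61 for RXRG and 0.88 for PPARG. The ACADL difference lies below the unexpressed level in both clones and has no size, and those of CD36 and PPARG are larger than the lower bounds that the level allows. ACSL1 and ACADM had their highest mean in A7, whereas RXRG, CD36, CPT1A and FADS2 had their lowest in G10.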

How the results depend on the processing

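The counts of called genes stayed at 3 to 4 in A7 vs control, 6 in G10 vs control and 7 to 8 in G10 vs A7. In PCDNA3 vs A375 the count ranged from 0 to 1 when single arrays were left out. Over all alternatives, called differences kept their direction and call in 450 cases and lost the call in 8, and none turned. Replicate numbers did not pair the arrays: same-numbered arrays of different groups deviated with a median correlation of 0.005 (-0.161 to 0.230) and 3 of 24 pairs above 0.1. With the replicate block, 3, 6, 8 and 1 genes were called in the 4 comparisons, as without it. Over all clusters, A7 vs control had 1895 calls, but 1073 without replicate 1 of A7 and 1214 without replicate 2. PCDNA3 vs A375 had 41, with 2 to 582 over the alternatives, and 36.6% of its calls were higher, against 21.6% after median centring, 54.3% with only the groups compared and 16.7% to 50.0% without single arrays. Differences near 0 that were not called changed sign in 29 cases. Against A375 alone, CD36 in A7 was at -0.048, and against PCDNA3 alone CPT1A was at 0.066, FADS2 at -0.15 and RXRG at 0.014. Array weights put FADS2 in A7 at -0.030. Quantile normalization put ACSL1 at -0.036 and PLIN2 at -0.00575 in PCDNA3 vs A375. Without G10 arrays 1 and 2, PLIN2 in G10 vs A7 was at 0.043. Leaving out single arrays, FADS2 in A7 ranged from -0.067 to 0.11 and RXRG from -0.10 to 0.045. In PCDNA3 vs A375, the same ranges were -0.086 to 0.084 for ACSL1, -0.040 to 0.22 for ACADL (below the unexpressed level, no size), -0.10 to 0.021 for ACADM, -0.11 to 0.018 for RXRG, -0.11 to 0.047 for PPARG and -0.063 to 0.073 for PLIN2. Averaging several clusters of a gene had no effect, since each had 1. ACADL gave no value under the filter at the unexpressed level. The cause of these changes was not tested. Genes near 5.18, here PPARG, CD36 in G10 and ACADL, are those whose sizes the arrays limit.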

Other observations

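In G10 vs A7, 17 of the 136 further pathway genes were higher and 12 lower (12.5% and 8.82%, beside 7.83% and 7.38% of all clusters). With the fit limited to the 20846 clusters above the unexpressed level, 2762 were higher and 2642 lower, with 18 and 14 of the 112 pathway genes above it. Of the 10 peroxisomal genes, ACOX3, EHHADH, ABCD3 and PEX11A were higher in G10 and none was lower. Of the 16 mitochondrial beta-oxidation genes, none was higher and 2 were lower, although 7 were higher in G10 than in control. Without G10 arrays 1 and 2 the peroxisomal count was 2 higher and 3 lower, and without arrays 3 and 4 the mitochondrial count was 5 higher and 2 lower. UCP2, a mitochondrial carrier and PPAR target, was higher in G10 than in A7 with EHHADH and PEX11A, 3 of 29 PPAR targets, and none of the 29 was lower. The EHHADH call was lost in 7 of 25 settings (adjusted p up to 0.382). Over all settings 1 to 6 of the 29 were higher and 0 to 2 lower.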
